A study of Mus musculus with 2 samples.

Results

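The enteroendocrine hormone and factor genes examined here are 10 mouse genes, Chga, Chgb, Gcg, Cck, Gip, Sst, Tph1, Neurog3, Neurod1 and Pax4, out of 21755 protein-coding genes of GENCODE M21 on chromosomes 1 to 19 and X. CTCF ChIP-seq had been done on whole intestine of newborn mice (strain B6NCrl, postnatal day 0), in 1 group of 2 biological replicates, each made of tissue powder pooled over several dissections, with the sex of the mice not collected. There was no second condition, so no difference between conditions could be tested. A summit was counted for a gene when it lay in the gene body or within 20 kb of any of its transcription start sites (TSSs), and all positions are on mm10. The genes are listed by name, with no threshold on their CTCF values, though earlier results of these data were known when the list was made.

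Enteroendocrine cells are the scattered hormone-secreting cells of the gut epithelium, and they sense the contents of the gut lumen. They arise from secretory progenitors in which Neurog3, a basic helix-loop-helix factor, starts the endocrine programme, and they store peptides or serotonin in granules. The zinc fingers of CTCF read a long DNA motif that has a direction, and CTCF and cohesin together bound chromatin loops, whose anchors often carry motifs that face each other. Enteroendocrine cells are a small part of whole intestine, so the peaks are those of all cells of the gut wall together, and CTCF ChIP-seq carries no expression value with which the labelled tissue could be checked against marker genes.

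In the optimal list CTCF was found near most of these genes but in the body of only 1. Of the 10 genes 8 had at least 1 summit of the optimal list in the window, against 82.3% of all protein-coding genes and 76.3% of the 14718 whose window was no longer than the longest of the 10 (61.1 kb). The optimal list is the authors' set of 73465 peaks kept by a filter on the irreproducible discovery rate (IDR). IDR scores whether a peak ranks alike in the lists compared, and the comparison behind this list is not described. The 8 genes shared 17 summits, from 1 at Chga, Gcg, Neurog3 and Pax4 to 5 at Cck, while Chgb and Neurod1 had none. Only Tph1 had a summit inside the gene body. That is 1 of 10 genes, against 59.8% of all protein-coding genes and 43.7% of the 13673 that were no longer than Tph1, the longest of the 10 (27.9 kb). The others were 1.39 to 13.8 kb long, so this background also holds genes longer than they were. Weak peaks of both replicate lists, absent from the optimal list, lay in the bodies of Chgb, Gip, Neurog3, Neurod1 and Tph1. Each replicate list holds 300000 peaks, and the share of protein-coding genes with such a peak was not counted. Within 1 kb of any TSS an optimal summit was again found at 1 of 10 genes, against 45.7% of protein-coding genes.

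The promoters of the 10 genes were not uniformly poor in CpG. The ratio of observed to expected CpG over 1001 bases around the 5' TSS had a median of 0.49 in the 10 genes, against 0.56 in all protein-coding genes. It was lowest at Pax4 (0.05) and Gip (0.18) and highest at Neurod1 (0.68) and Chga (0.62). Of the 13095 protein-coding genes inside this range of ratios, 33.9% had a summit within 1 kb of a TSS. Over their windows the 10 genes held 3.93 summits per 100 kb, against 6.73 in the 14718 windows of like length and 2.79 over chromosomes 1 to 19 and X as a whole. The nearest optimal summit lay a median of 7.42 kb from the 5' TSS of the 10 genes, against 3.17 kb for protein-coding genes.

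**Figure D1:**
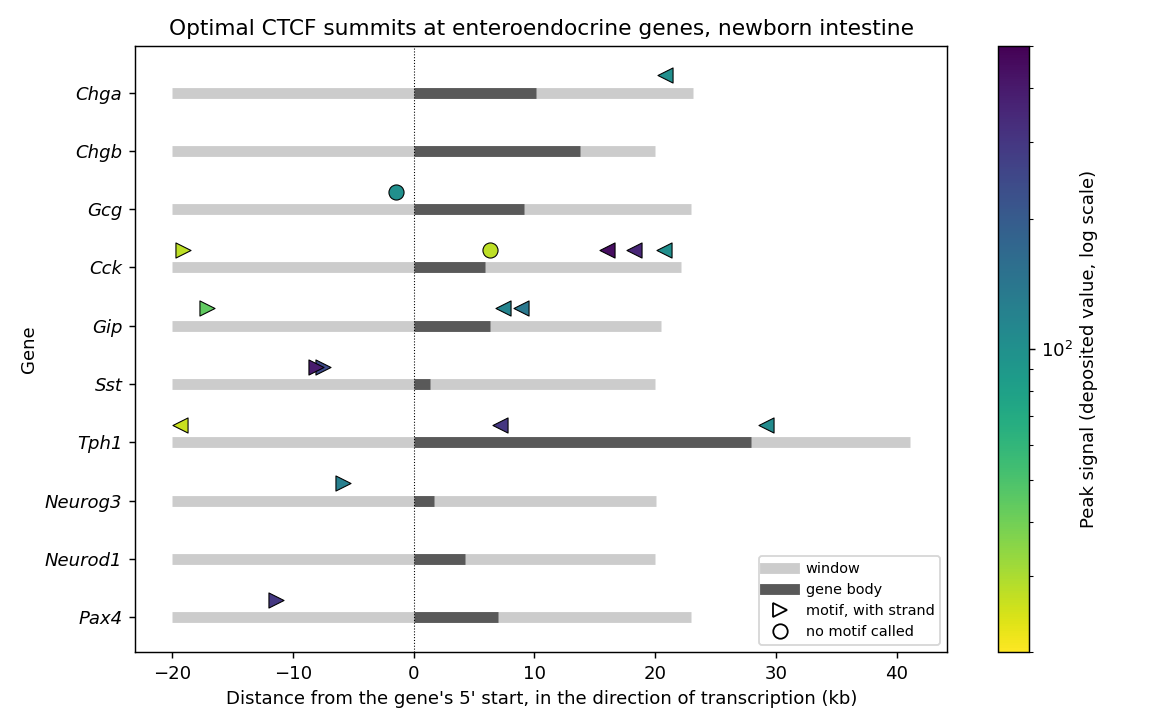
Each row is 1 gene, drawn in the direction of transcription from its 5' start at 0, with the window in light grey and the gene body in dark grey. Symbols are the 17 optimal summits, coloured by deposited signal on a log scale, with the arrowhead showing the strand of the CTCF motif and a circle where no motif was called. Gene bodies other than that of Tph1 are empty, and arrowheads right of the start point left, while those left of it point right except at Tph1.

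The sequences under the summits are shown here because the results on repeats and motif direction rest on them. The motif, a 19-base matrix trained on peaks of other chromosomes than the one scored, is in capitals with 10 bases on each side in lower case, read 5′ to 3′ on the strand given. The first 4 sites, at 3 genes on 3 chromosomes, share the run CAGAAGAGGGCATCAGATC across the motif and its 3′ flank.
Chga, downstream, chr12:102575730-102575768, minus strand: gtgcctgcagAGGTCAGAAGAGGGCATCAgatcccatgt
Gip, downstream, chr11:96031891-96031929, minus strand: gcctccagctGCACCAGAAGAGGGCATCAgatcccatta
Gip, downstream, chr11:96033384-96033422, minus strand: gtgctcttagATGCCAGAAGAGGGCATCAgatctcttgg
Tph1, upstream, chr7:46691871-46691909, plus strand: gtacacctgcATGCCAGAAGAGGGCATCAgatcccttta
The next 6 sites lie under the strongest summit of Cck, Sst, Tph1 and Pax4, the summit of Neurog3 and a second strong summit of Cck. None of them contains that run. The Neurog3 site differs from it at 4 bases, and a Cck site not shown, under its summit of signal 102, at 3.
Cck, downstream, chr9:121479625-121479663, plus strand: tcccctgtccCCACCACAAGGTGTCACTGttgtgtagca
Cck, downstream, chr9:121477441-121477479, plus strand: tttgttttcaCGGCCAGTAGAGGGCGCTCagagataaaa
Sst, upstream, chr16:23899041-23899079, minus strand: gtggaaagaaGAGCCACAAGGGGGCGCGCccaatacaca
Tph1, gene body, chr7:46665342-46665380, plus strand: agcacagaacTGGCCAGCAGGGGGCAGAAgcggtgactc
Pax4, upstream, chr6:28460731-28460769, minus strand: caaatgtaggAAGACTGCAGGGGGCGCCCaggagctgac
Neurog3, upstream, chr10:62127256-62127294, plus strand: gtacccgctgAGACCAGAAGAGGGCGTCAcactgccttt

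The granins are acidic proteins that pack hormones into dense-core granules, and their genes serve as general markers of endocrine cells. Chga, which encodes chromogranin A (chr12:102554969-102565028, plus strand), had 1 summit, 17.7 kb downstream of its nearest TSS and inside an intron of the neighbouring gene Itpk1. The peak, chr12:102575667-102575836, had a signal of 102 in the optimal list, above 57.2% of it. Its signal was 45.3 in replicate 1 and 56.1 in replicate 2, at ranks 33036 and 30206 of the 300000 peaks in each list, counted from the strongest. A further peak 16.1 kb from the nearest Chga TSS, with signals of 12.8 and 13.0 in the 2 replicates, was in the conservative IDR list and not in the optimal list.

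Chgb, which encodes chromogranin B (chr2:132781278-132795079, plus strand), lay in a stretch of 99.6 kb without an optimal summit. The nearest summit was 34.7 kb away at the shared promoter of Trmt6 and Mcm8, with a signal of 79.4 and no motif called. The replicate lists held weak peaks on the gene itself. At 0.393 kb from the TSS the signal was 7.41 in replicate 1 (rank 90902) and 13.1 in replicate 2 (rank 65835). At 8.27 kb, where the motif scored 18.02, the signal was 5.62 and 6.23 in the 2 replicates.

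The peptide hormone genes had their summits outside the gene, at distances from 1.45 to 19.1 kb from a TSS. Gcg, whose precursor gives glucagon-like peptides in the gut (chr2:62474530-62483650, minus strand), had 1 summit 1.45 kb upstream of its TSS, the closest of these. The peak, chr2:62485042-62485164, had a signal of 101 in the optimal list. Its signal was 44.4 in replicate 1 and 57.6 in replicate 2, at ranks 33381 and 29772. No motif was called there: the best site scored 7.64, under the threshold of 9.17, and it is shown because this is the closest summit to a hormone gene start.
Gcg, best site under the threshold, chr2:62485085-62485123, plus strand: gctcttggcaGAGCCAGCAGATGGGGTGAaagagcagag

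Cck, which encodes cholecystokinin, the hormone that empties the gall bladder and drives pancreatic secretion (chr9:121489824-121495694, minus strand), had the most summits of the 10 genes. Of its 5 summits 3 stood together downstream of the gene, within 4.67 kb, at 18.6, 16.1 and 13.9 kb from the nearest TSS, with signals of 102, 355 and 443. The summit of signal 443 was the strongest at any of the 10 genes, above 94.9% of the optimal list, with 225 in replicate 1 and 218 in replicate 2. The summit of signal 355 had 180 in replicate 1 and 178 in replicate 2. The other 2 summits were weak, 4.22 kb downstream and 19.1 kb upstream of a TSS, with signals of 27.6 and 27.5. In replicate 2 those 2 peaks ranked 79716 and 74264, below the strongest 73465, and in replicate 1 they ranked 56511 and 57935. The downstream one was missing from the conservative list and had no motif called.

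Gip, which encodes the incretin hormone glucose-dependent insulinotropic polypeptide (chr11:96024545-96030831, plus strand), had 3 summits. The strongest, with a signal of 138, lay 8.36 kb from the nearest Gip TSS, and one of signal 117 lay at 6.86 kb. Both were closer to a TSS of the next gene, Snf8, at 1.48 and 2.98 kb. In the replicates the stronger of these had signals of 62.5 and 73.6, and the weaker 56.6 and 59.6. Both are downstream of the gene beside the small nucleolar RNA gene Gm24949, whose start is within 1 kb, and both hold the shared run printed above. The third summit, 17.1 kb upstream with a signal of 44.0, lay 1.50 kb from a TSS of Igf2bp1 in sequence with 70.4% G and C.

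Sst, which encodes somatostatin, an inhibitor of hormone release (chr16:23889573-23890958, minus strand), had 2 strong summits upstream, only 610 bases apart. They lay 7.48 and 8.09 kb from the TSS, with signals of 244 and 395 in the optimal list. The stronger had 176 in replicate 1 (rank 8726) and 222 in replicate 2 (rank 4068), and the weaker 103 and 139. No coding gene start was nearer to either summit than that of Sst, and the next coding neighbours were 275 kb (Rtp4) and 34.6 kb (Rtp2) away.

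Tph1 encodes tryptophan hydroxylase, which makes the serotonin of enterochromaffin cells, the enteroendocrine cells that release it (chr7:46644641-46672537, minus strand). It was the only gene of the 10 with a summit in its body. That peak, chr7:46665225-46665518, had a signal of 302 and sat 0.07 kb upstream of an internal TSS of Tph1 and 7.17 kb inside the gene from its 5' start. It had 149 in replicate 1 and 153 in replicate 2, at ranks 12487 and 12761, and its motif scored 21.74. A summit of signal 107 lay just past the 3' end, 8.04 kb from the nearest Tph1 TSS and 3.57 kb from that of the neighbouring gene Sergef. The third, 19.4 kb upstream in an exon of Saal1, had a signal of 26.0 and was missing from the conservative list. At the 5' start itself the replicate lists held a weak peak with signals of 13.4 (rank 63314) and 9.55 (rank 79245) that was not in the optimal list.

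The factor genes had 2 summits between the 3 of them, both upstream. Neurog3 (chr10:62133090-62134763, plus strand) lies inside the span of Fam241b, which runs on the opposite strand and has an exon that overlaps it. Its summit, 5.81 kb upstream in a Fam241b intron, had a signal of 126, with 64.9 in replicate 1 and 60.7 in replicate 2. Just outside the window, 22.0 kb from a Neurog3 TSS, the promoter of Fam241b carried a stronger peak of signal 403. Pax4, a paired-homeobox factor of endocrine progenitors (chr6:28442334-28449353, minus strand), had 1 summit 11.4 kb upstream. It had a signal of 298 in the optimal list, with 148 in replicate 1 and 151 in replicate 2.

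Neurod1, the basic helix-loop-helix factor that acts after Neurog3 (chr2:79452521-79456751, minus strand), lay in 120 kb without an optimal summit. The coding gene Cerkl overlaps Neurod1. The nearest summit was 42.7 kb upstream, with a signal of 333, a called motif, and 167 in each replicate. Its nearest coding start was one of Cerkl, also at 42.7 kb. Inside Neurod1 the replicates shared only 1 peak, with signals of 2.78 and 3.28 at ranks 267519 and 214788 and no motif called. The window's edge decided which peaks were counted: just inside 20 kb were summits of Tph1 (19.4 kb, signal 26.0) and Cck (19.1 kb, 27.5), and just outside were summits of Chga (21.2 kb, 370), Pax4 (21.6 kb, 39.4, and 22.1 kb, 101), Neurog3 (22.0 kb, 403) and Gcg (22.3 kb, 177).

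All 17 summits were overlapped by a peak in both replicate lists, as were 99.7% of all optimal peaks. Among the strongest 73465 peaks of each list the count was 14 of 17, against 84.9% of all optimal peaks. The exceptions were the 2 weak summits of Cck and the upstream summit of Tph1, which fell below that rank in replicate 2 alone. Ranks of the 17 peaks in the 2 replicates had a Spearman rho of 0.953, a description over peaks that come from the same 2 libraries. These peaks had already passed the IDR filter, which derives from the same replicate lists. The 17 signals ranged from 26.0 to 443 with a median of 117, against a median of 76.0 for the whole optimal list, and 13 of the 17 were above it. A summit above that median was found at 8 of the 10 genes (80.0%), against 72.4% of all protein-coding genes.

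**Figure D2:**
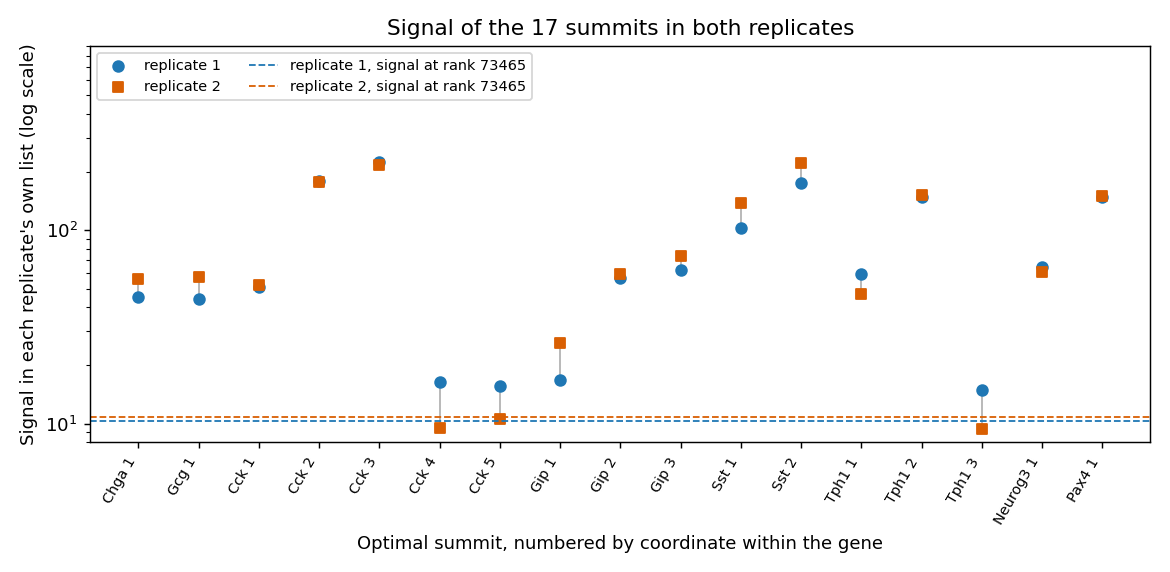
Each column is 1 of the 17 optimal summits, numbered by coordinate within its gene, with the signal in replicate 1 (circle) and replicate 2 (square) from that replicate's own list on a log axis. Dashed lines mark the signal of the peak at rank 73465 in each list, 10.3 in replicate 1 and 10.8 in replicate 2. Most pairs lie close together and well above the lines, and 3 weak summits of Cck and Tph1 are under the line in replicate 2.

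A CTCF motif within 100 bases was called at 15 of the 17 summits (88.2%), against 72.5% of all optimal summits (95% Wilson interval 72.2 to 72.8, counting error only) and 5.02% of flanking windows 1 kb away. The 2 without a motif were those of Gcg and the weak downstream summit of Cck. Between motif centre and summit the median distance was 8 bases and the longest 34. At the stricter threshold that 1% of flanking windows reach, 9 of the 17 kept a motif, against 41.5% of all optimal summits.

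Several of the motifs lay in repeats. The motif centre was soft-masked as repeat in the RefSeq genome at 8 of the 15 motifs (53.3%), against 28.8% of all motif-bearing optimal summits. These were at Chga, Cck, Gip, Sst, Neurog3 and Tph1. The run of 19 bases shared by 4 of them was found without mismatch, on either strand, within 100 bases of 2.00% of all optimal summits, of which 95.8% were masked as repeat at the summit. The run was chosen after the sequences had been seen, as the longest stretch that 4 of the sites have in common. Rodent B2 elements, a family of short interspersed repeats, are known to carry CTCF motifs, but no repeat class was assigned here. Over chromosomes 1 to 19 and X there were 17435 copies of the run, of which 8.44% had an optimal summit within 100 bases. The windows of the 10 genes held 9 copies, and 4 of them had one. Those 4 are the sites from which the run was taken, so their share cannot be compared with the 8.44%. How uniquely reads mapped to these repeats was not tested.

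Within the 20 kb windows most motifs faced the start of the gene. Of the 15 motifs 14 pointed at the 5' start of their gene, so that motifs upstream ran with the direction of transcription and those in or beyond the gene ran against it. Among the 30322 motifs in windows of like length at protein-coding genes, 48.1% pointed at the gene start. The exception was the weak upstream summit of Tph1. By gene, all motifs pointed at the start in 6 of the 7 genes with a motif, against 22.7% of the 10480 protein-coding genes of like window with a motif. This share depends on how many motifs a gene has, which was not matched, and Chga, Neurog3 and Pax4 had only 1 each. The pattern was noticed on the map of summits and then counted, the 3 neighbouring motifs of Cck and the pairs at Gip and Sst are not independent of each other, and no test was made. Among summits above the median signal the count was 12 of 12, against 47.6% at protein-coding genes. With windows of 50 kb it was 26 of 42 (61.9%), against 47.7% at protein-coding genes. By gene, all motifs then pointed at the start in 2 of 9 genes, against 10.8% of protein-coding genes. Just outside the 20 kb window, motifs at Chga (21.2 kb), Neurog3 (22.0 kb), Gcg (22.3 kb) and Pax4 (22.1 kb) pointed away from the start. That of Pax4 at 21.6 kb pointed at it.

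The nearest motif-bearing summits on each side of the gene body faced each other at 5 of the 10 genes (Chga, Cck, Gip, Neurog3 and Neurod1), against 27.9% of protein-coding genes. At Chga, Cck, Gip and Neurog3 this reuses motifs already counted for direction above, so it is not a separate result. They pointed apart at Chgb and Gcg (24.0% of protein-coding genes) and ran in tandem at Sst, Pax4 and Tph1 (48.1%). The interval between the flanking motifs was narrowest at Gip (24.5 kb) and widest at Chgb (130 kb) and Neurod1 (127 kb), with a median of 52.7 kb against 81.8 kb for protein-coding genes. This interval includes the gene body, and gene length was not matched in that background, so the medians cannot be compared apart from length. At 8 of the genes the interval held no other whole coding gene, while that of Chgb also held Trmt6 and Mcm8 and that of Pax4 also held Fscn3. The same share over protein-coding genes was not counted, so this count has no background. The facing pair had signals of 178 and 102 at Chga and 237 and 333 at Neurod1. At the other 3 genes 1 side was weaker than the list's median of 76.0: the pair had 443 and 27.5 at Cck, 44.0 and 117 at Gip, and 126 and 21.1 at Neurog3. With only flanking peaks above the median signal, 5 of the 10 genes lay between facing motifs, against 29.4% of protein-coding genes. At the stricter motif threshold 3 of the 10 genes lay between facing motifs, near the 27.3% of protein-coding genes at that threshold. ChIP-seq does not measure contacts, so whether these pairs form loops was not tested.

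**Figure D3:**
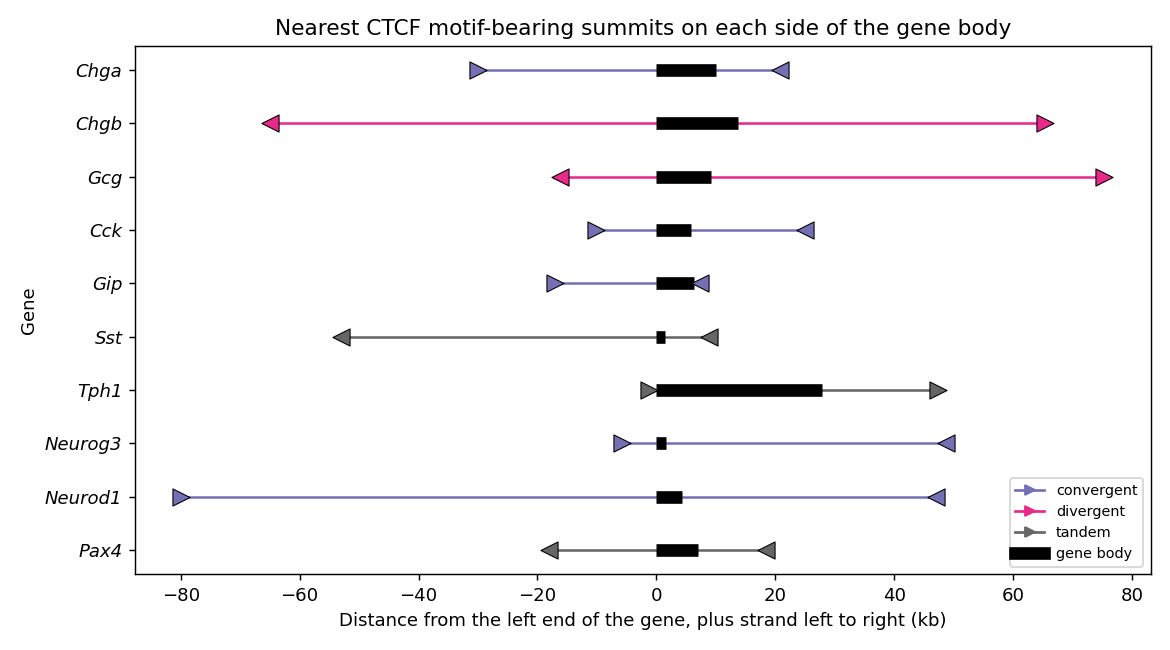
Each row is 1 gene with its body in black, drawn along the plus strand in kb from its left end, and arrowheads are the nearest motif-bearing optimal summits on each side with the strand of their motif. Colours give the order of the pair: facing (convergent) at 5 genes, apart (divergent) at 2 and tandem at 3. The widest intervals are those of Chgb and Neurod1.

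How often the 10 genes had a CTCF summit depended on how far from the gene it was sought. In the gene body it was 1 of 10, against 59.8% of protein-coding genes and 43.7% of those no longer than Tph1. Within the body or 10 kb of a TSS it was 6 of 10, against 76.6%. At 20 kb the share was close to the background (80.0% against 82.3%). At 50 kb all 10 genes had a summit, with 50 summits in all, against 88.7% of protein-coding genes.

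**Figure D4:**
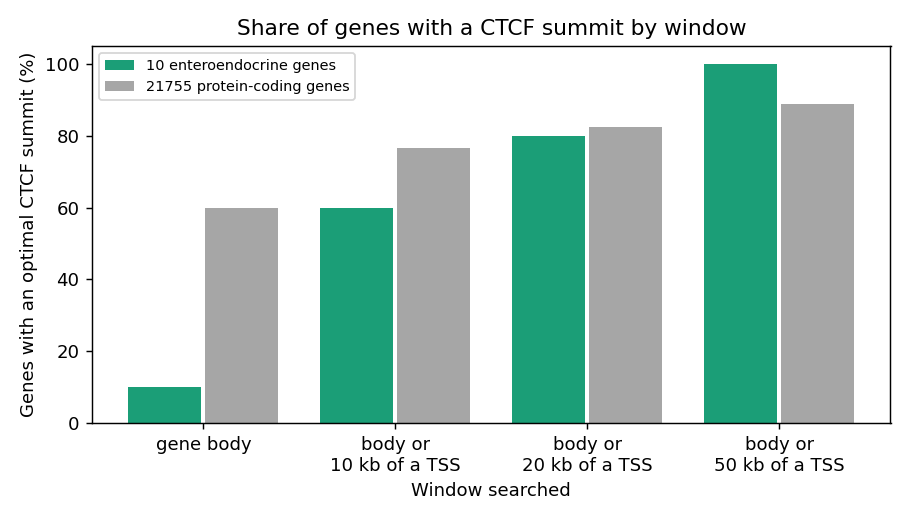
Bars give the percentage of genes with at least 1 optimal CTCF summit in 4 windows of growing size, for the 10 enteroendocrine genes (green) and for 21755 protein-coding genes (grey). The green bar is lower for the gene body (1 of 10 genes against 59.8%) and higher at 50 kb (10 of 10 genes against 88.7%). The grey bars hold genes of any length.

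Other genes of the enteroendocrine lineage were counted in the same window. Of 8 further hormone genes 6 had a summit, led by Gast (gastrin, signal 348) and Pyy (peptide YY, 346), and Tac1 (substance P) and Iapp had none. All 16 further endocrine factor genes had one, led by Fev (408), a factor of serotonin-making cells, and Insm1 (348). Of 14 granule and amine genes 13 had one, led by Vgf (522) and Ddc (503), which encodes the decarboxylase that completes serotonin synthesis after Tph1, and Scg3 had none. All 11 sensor genes had one, led by Gpr142 (490), a receptor for amino acids, and Sstr5 (442), a somatostatin receptor. The shares, 75.0%, 100%, 92.9% and 100%, stand beside the 82.3% of all protein-coding genes, and some of these genes are long, such as Ptprn2 with a window of 811 kb. All 10 goblet cell genes counted for comparison had one, led by Zg16 (496) and Clca1 (466). The strongest summit had a median signal of 218 over the 8 enteroendocrine genes with one, against 328 over all protein-coding genes with one. The same median was 304 over the further hormone genes, 201 over the factor genes, 365 over the granule and amine genes, 300 over the sensor genes and 370 over the goblet genes. The strongest signal depends on how many summits a window holds, which was not matched. The median number of summits was 1 in the 10 genes and 3 over all protein-coding genes. It was 2 over the hormone and sensor genes, 3 over the factor and the granule and amine genes, and 3.5 over the goblet genes. These lists were not tested against each other.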

How the data were processed

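CTCF ChIP-seq peak lists of 2 replicates were used on mm10. Per the deposited descriptions, a replicate's list derives from its own alignments plus 1 file that is not described, and both IDR lists derive from the replicate lists, the pooled list and another such file. Which aligner, caller, IDR threshold and control were used is not stated there. The signal of a peak and its −log10 q-value are values deposited by the authors, with the normalization not stated; the signal describes and ranks peaks within a list, and the −log10 q-value was used in no result. The summit is the peak start plus the deposited offset. The lists give no read counts, so depth is unknown and intervals cover counting error only. Replicates pool several dissections each.

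Summits were matched to GENCODE M21 genes. A position weight matrix of 19 bases was trained from a CTCF seed on the 5000 strongest peaks of even chromosomes and, apart, of odd chromosomes and X, in 6 rounds with a pseudocount of 1. Each matrix scored the other chromosomes, with thresholds (9.25 and 9.17) that 5% of training flanking windows reached. Sequences are from the RefSeq copy of GRCm38.p6, whose chromosome lengths fit the lists. The scripts were tested on simulated data. The 10 genes and the lists were chosen with earlier results of these data known; of each further list the text names the 2 genes of highest signal and the first that lacked a summit, besides neighbours of the 10 genes and nearest coding starts. Iapp, Ptprn2, Mcm8, Fam241b, Cerkl and Gm24949 were named after their values were seen. The motif direction, the shared run, the CpG range and the gene length limits were also chosen after values were seen. Alternatives were other windows, lists, thresholds and overlap rules. Python 3.11.15, numpy 2.4.6, scipy 1.17.1 and matplotlib 3.10.9 were used.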

Additional observations from a re-analysis of the deposited data

How the results depend on the processing

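The count of 8 genes with a summit stayed at 6 to 10 under other windows and lists, except for the gene body alone, where it was 1 gene with 1 summit. The 17 summits became 9 with a window of 10 kb and 50 with 50 kb, and 13 to 17 with the conservative list, the peaks above the median signal or the TSS window without the body. With the strongest 73465 peaks of the other replicate's list alone, 9 genes had a summit without replicate 1 (Chgb gained one) and 8 without replicate 2, with 20 summits in each case, and 17903 to 17932 protein-coding genes had one. At the motif threshold of 1% of flanking windows the share of summits with a motif was 52.9% at the 10 genes and 41.5% over all summits, and 3 genes lay between facing motifs. With flanking peaks above the median signal 5 genes did. The share of motifs pointing at the gene start was 61.9% with windows of 50 kb and 88.9% to 100% under the other 3 settings, which were chosen after seeing the data, as were the alternatives for the further gene lists. Counts in those lists, and of protein-coding genes with a summit, stayed within 1.5 times under the settings run. Read depth is unknown, so a missing or weak peak at Chgb or Neurod1 cannot be set against the reads behind it. No paired analysis was possible because there is 1 group.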
